A study of Mus musculus with 4 samples.

Results

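The genes described here are 35 genes of glucose uptake, glycolysis, the fate of pyruvate and the response to low oxygen. They were taken by gene symbol from the platform's annotation. Where a gene had several probe sets, the one shown was chosen by its mean signal over the 4 arrays, the highest being kept, and the levels below are given as a description. Of the 35 genes, 33 had a probe set that carried their symbol alone, and 32 of those were bright enough to be tested among 12740 genes. No probe set carried Eno1 or Gpi1 as its single symbol, so enolase 1 and glucose phosphate isomerase were not analysed here. Car9 lay below the signal filter and is given by its values. The genes were listed with earlier results of these data known.

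Glucose enters cells through facilitative transporters of the SLC2 family and is split by the enzymes of glycolysis into pyruvate. Pyruvate is either reduced to lactate by lactate dehydrogenase and exported through monocarboxylate transporters, or passed to the mitochondria by the pyruvate dehydrogenase complex, which pyruvate dehydrogenase kinases switch off. Prolyl hydroxylases mark the factor HIF1A for destruction when oxygen is present, and HIF1A that escapes them raises the transcription of many of these transporters and enzymes. Proliferating neural progenitors are known for a high rate of glycolysis, and newborn neurons for a shift toward respiration.

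RNA came from E10.5 mouse embryos of a mixed B6SJLF1 and ICR background, whose neural tubes were dissected between forelimb and hindlimb levels, dissociated with trypsin and sorted by GFP fluorescence. Atoh1-GFP cells came from the Atoh1BAC-GFP line, in which a bacterial artificial chromosome with the Atoh1 locus directs GFP to cells that form dorsal interneuron 1 (dI1). dNeurog1-GFP cells came from a line in which a Neurog1 enhancer directs GFP to adjoining dorsal cells, the source of dorsal interneuron 2 (dI2). For each population 2 Affymetrix arrays from biological replicates were hybridised, and no unsorted or GFP-negative sample is analysed here. The arrays are taken to hold the GFP-positive cells, which the labels leave unsaid, as they do the number of embryos per array. Each transgene marks the cells in which its regulatory sequence is active, or was active shortly before. All 22 measured neural progenitor markers and all 20 pan-neuronal markers were at or above the signal filter on each of the 4 arrays.

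Signals are MAS5 intensities, a linear measure of hybridisation for each probe set. The deposited arrays of replicate 1 had a trimmed mean of 250 and those of replicate 2 of 500, in both populations. All signals below were brought to 1 trimmed mean of 500. Median signals still differed after this scaling. In replicate 1 the median was 138 for Atoh1-GFP and 115 for dNeurog1-GFP, with 67.8% and 63.5% of probe sets above the filter signal. In replicate 2 it was 76.0 for Atoh1-GFP and 75.4 for dNeurog1-GFP, with 52.9% and 52.8%. How far this enters the differences of dim genes was not tested. Differences are given as Atoh1-GFP less dNeurog1-GFP, on log2(signal + 32), which shrinks differences of dim genes, tested with limma and adjusted over all genes (Benjamini-Hochberg), with 0.05 as the threshold. Because the replicate number coincides with the scaling target, each call is given without a replicate block and with it, and differences are given within each replicate number. Atoh1, the factor that defines dI1, had signals of 21412 and 19675 on the Atoh1-GFP arrays against 1772 and 1861 on the dNeurog1-GFP arrays, and Neurog1, a factor of the dI2 domain, had 172 and 176 against 1388 and 2469. Both passed the threshold in both models (adjusted p = 0.0043 and 0.021 without the block), in the direction of the labels. With the block all 5 dI1 markers passed as higher in Atoh1-GFP cells, and 4 of 6 dI2 markers passed as lower. The dI2 markers that did not pass were Foxd3 (log2 difference -1.19) and Foxp2 (0.13).

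The largest differences among the 32 tested genes of the list were those of a pair of membrane transporters. Slc2a1, which encodes the glucose transporter GLUT1, and Slc16a1, which encodes the lactate and pyruvate transporter MCT1, were both more than 2-fold lower in Atoh1-GFP than in dNeurog1-GFP cells within each replicate number. The phosphofructokinase gene Pfkl was lower by a smaller margin. These 3 genes passed the threshold with the block, and 0 of the 32 passed without it. Over all genes, 805 of 12740 (6.32%) passed with the block, of which 463 (3.63%) were lower in Atoh1-GFP cells, and 28 (0.22%) passed without it (1097 at an unadjusted p under 0.05). Those 28 were split into 16 higher and 12 lower in Atoh1-GFP cells, a split that was 1 and 12 on the values as deposited and 7 and 11 when arrays were set to 1 common 75th percentile. Set beside that background, 3 of 32 is a small count, and it shows nothing particular to the list. At an unadjusted p under 0.05 without the block, limma counted 3 of the 32 (Slc2a1, Slc16a1 and Tpi1), where 8.61% of all genes did so. The RNA of a sort is an average, so fewer cells that carry a transcript and less transcript per cell cannot be told apart.

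Slc2a1 had signals of 2289 and 3680 on the Atoh1-GFP arrays against 7513 and 8954 on the dNeurog1-GFP arrays. Both Atoh1-GFP arrays lay below both dNeurog1-GFP arrays. The signal was 3.28-fold higher in dNeurog1-GFP cells within replicate 1 and 2.43-fold within replicate 2. The log2 difference was -1.49 (standard error 0.14 and adjusted p = 0.0067 with the block, 0.27 and 0.107 without it). With the block, its 95% interval ran from -1.83 to -1.14. With any 1 of the 4 arrays left out, the log2 difference of Slc2a1 lay between -1.83 and -1.15. The model with no block then gave adjusted p from 3.0e-06 to 0.027, but 1 population has a single array in each such fit and is assumed to vary like the other, so these p-values are no support for the call. Of the 12740 genes, 83 had a log2 difference further toward dNeurog1-GFP cells.

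Slc2a3, which encodes the neuronal glucose transporter GLUT3, gave no such difference. The gene read 1431 and 2311 on the Atoh1-GFP arrays against 1553 and 1963 on the dNeurog1-GFP arrays, and the populations overlapped. The log2 difference was 0.06 (95% interval -0.27 to 0.39 with the block), and its sign differed between the replicate numbers.

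Slc16a1 had signals of 1120 and 1279 on the Atoh1-GFP arrays against 3052 and 3240 on the dNeurog1-GFP arrays. The populations did not overlap, and the arrays within each population lay close together. The signal was 2.72-fold and 2.53-fold higher in dNeurog1-GFP cells within replicates 1 and 2. The log2 difference was -1.37 (standard error 0.12 and adjusted p = 0.0047 with the block, 0.22 and 0.087 without it), with a 95% interval of -1.65 to -1.09 with the block. With 1 array left out and no block, its log2 difference lay between -1.46 and -1.28. Adjusted p was 0.013 and 0.0033 without the Atoh1-GFP replicate 1 or replicate 2 array, where the spread within a population comes from the dNeurog1-GFP arrays alone, and 0.084 and 0.104 without the dNeurog1-GFP replicate 1 or replicate 2 array. Slc2a1 and Slc16a1 were the 2 of 32 genes lower by more than 1 log2 unit within both replicate numbers, as were 1.16% of all genes tested, and 0 were higher by that margin, as were 1.11%.

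Slc16a3 encodes MCT4, an exporter of lactate, and had signals of 237 and 168 on the Atoh1-GFP arrays against 408 and 148 on the dNeurog1-GFP arrays. Its log2 difference was -0.71 within replicate 1 and 0.15 within replicate 2, so the replicates gave opposite signs. Bsg, the chaperone that brings MCT1 to the membrane, was on the list of further pathway genes and had 2842 and 1937 against 2781 and 2174, a log2 difference of -0.07.

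**Figure D1:**
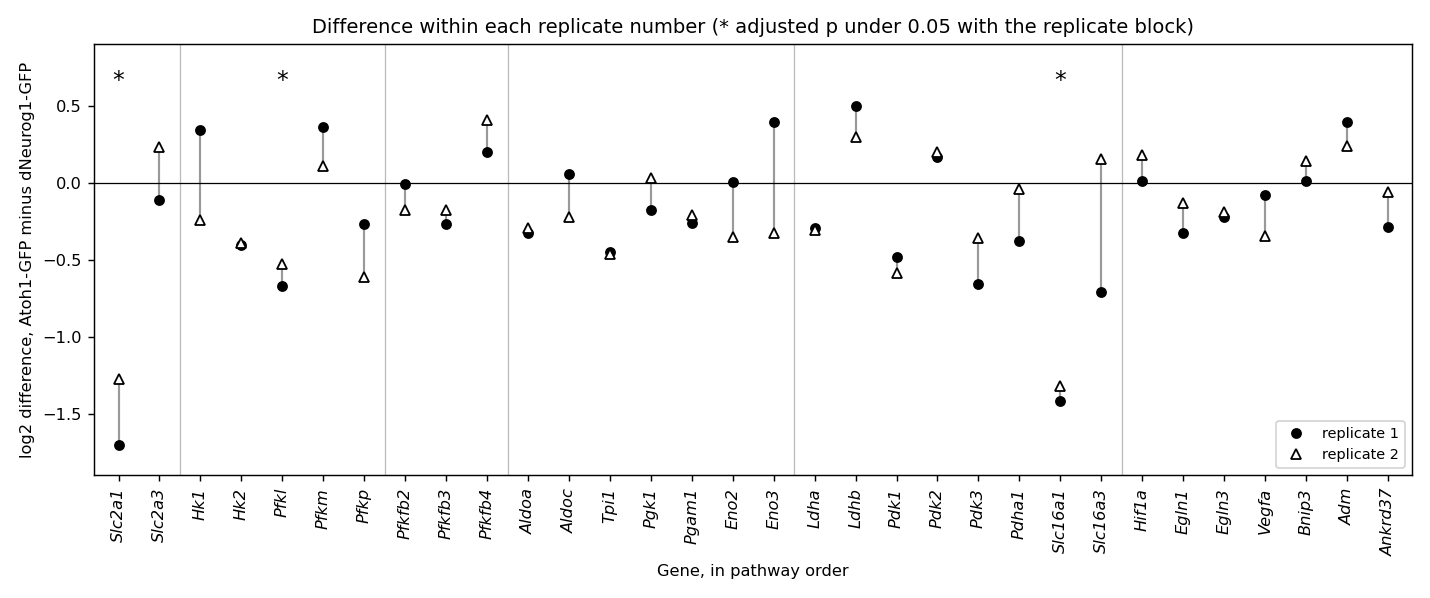
The log2 difference, Atoh1-GFP minus dNeurog1-GFP in units of log2(signal + 32), is plotted on the vertical axis for the 32 tested genes in pathway order, with a filled circle for replicate 1, an open triangle for replicate 2 and thin vertical lines between the groups of genes. Slc2a1 (-1.70 and -1.28) and Slc16a1 (-1.42 and -1.32) stand below the other genes within both replicates, and asterisks mark the 3 genes that passed the threshold with the replicate block.

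The promoter sequences of the 3 genes that passed, and of Ldhb, the tested gene with the highest difference toward Atoh1-GFP cells, are shown because HIF1A binds a short core in the promoters of glycolytic genes. Each runs 5′ to 3′ on the gene's strand, from 250 bases before to 50 after the annotated start in RefSeq (GRCm38.p6), and capitals mark ACGTG or GCGTG on either strand, where matches may overlap (CACGTG reads ACGTG on both strands).
Slc2a1 promoter, chr4:119108495-119108794, plus strand: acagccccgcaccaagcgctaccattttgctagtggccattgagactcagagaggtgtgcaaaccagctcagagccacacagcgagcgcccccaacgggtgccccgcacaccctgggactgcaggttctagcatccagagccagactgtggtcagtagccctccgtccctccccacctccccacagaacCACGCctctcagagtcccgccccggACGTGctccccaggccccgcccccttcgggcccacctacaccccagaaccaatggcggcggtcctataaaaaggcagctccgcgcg
Slc16a1 promoter, chr3:104638414-104638713, plus strand: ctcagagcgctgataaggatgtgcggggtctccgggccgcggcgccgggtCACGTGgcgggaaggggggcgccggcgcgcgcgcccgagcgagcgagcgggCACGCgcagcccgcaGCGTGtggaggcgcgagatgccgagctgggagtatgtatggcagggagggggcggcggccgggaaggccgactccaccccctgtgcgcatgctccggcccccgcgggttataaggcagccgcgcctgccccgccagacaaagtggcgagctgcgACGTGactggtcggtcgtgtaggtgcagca
Pfkl promoter, chr10:78009758-78010057, minus strand: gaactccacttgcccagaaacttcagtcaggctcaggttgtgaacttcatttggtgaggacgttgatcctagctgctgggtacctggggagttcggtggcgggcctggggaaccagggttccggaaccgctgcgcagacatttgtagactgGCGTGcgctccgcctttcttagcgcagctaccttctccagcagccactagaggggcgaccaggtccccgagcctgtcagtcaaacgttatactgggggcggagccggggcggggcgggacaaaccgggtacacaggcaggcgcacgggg
Ldhb promoter, chr6:142507908-142508207, minus strand: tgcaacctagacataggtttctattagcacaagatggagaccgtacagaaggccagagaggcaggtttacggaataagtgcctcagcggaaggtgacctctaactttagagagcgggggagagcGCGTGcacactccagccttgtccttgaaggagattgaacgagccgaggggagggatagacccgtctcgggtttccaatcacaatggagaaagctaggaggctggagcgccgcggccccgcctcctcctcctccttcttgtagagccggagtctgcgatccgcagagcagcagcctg
Slc16a1 held 4 marked stretches, Slc2a1 2, and Pfkl and Ldhb 1 each. RefSeq gave 50 promoter windows for 34 of the 35 genes, and 41 of them (82%) held at least 1 of the letter strings. The share was 61.1% among 13190 windows of the genes tested and 43.8% among all 32851 windows of 300 bases. The median GC content of the listed genes' windows was 61.5%, against 60.7% for the genes tested and 52.7% for all windows. ACGTG, with or without GCGTG, was in 52% of the listed windows and 25.1% of those of the genes tested. GCGTG, with or without ACGTG, was in 58% and 49.7%. Windows of the same gene can overlap and share a site, and the list includes known HIF targets, so these shares are a description. Ldhb and Pfkl, which differed in opposite directions, both held GCGTG and not ACGTG. A match is a description of these letters and does not mark a bound site.

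Among the listed enzymes of the first steps of glycolysis, Pfkl was the one that passed. Pfkl, the liver-type phosphofructokinase, had 1617 and 2298 on the Atoh1-GFP arrays against 2597 and 3330 on the dNeurog1-GFP arrays. Its arrays did not overlap, and its signal was 1.61-fold and 1.45-fold higher in dNeurog1-GFP cells within the replicates. The log2 difference was -0.60 (standard error 0.11, adjusted p = 0.040 with the block, and 0.62 without it). With the block it missed the threshold when no filter on low values was used (adjusted p = 0.070) or when all probe sets of a gene were averaged (0.070).

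Pfkm, the muscle type, had 959 and 955 on the Atoh1-GFP arrays against 740 and 883 on the dNeurog1-GFP arrays, a log2 difference of 0.24 (with the block, adjusted p = 0.40). Pfkp, the platelet type, had 208 and 173 against 257 and 281, without overlap and, like Pfkl, lower within both replicates, with a difference of -0.44 (with the block, adjusted p = 0.30). Neither Pfkm nor Pfkp passed, and differences between the phosphofructokinase genes were not tested. Of 16 tested muscle markers, 3 passed with the block, all higher in Atoh1-GFP cells (Myl7, Myl4 and Tnnc1), against a background of 2.68%. Within both replicate numbers 10 were higher and 1 (Ckm) lower, while Myl3, Myod1, Myog, Myf5 and Des changed sign. Summed over the markers, signals came to 3744 and 6287 on the Atoh1-GFP arrays against 1560 and 4084 on the dNeurog1-GFP arrays, and their part in the Pfkm values was not tested.

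Hexokinase traps glucose in the cell as glucose 6-phosphate. Hk2, the inducible hexokinase, had 1524 and 1439 on the Atoh1-GFP arrays against 2032 and 1896 on the dNeurog1-GFP arrays, with no overlap and with 1.33-fold and 1.32-fold higher signals in dNeurog1-GFP cells. The log2 difference was -0.40 and missed the threshold (adjusted p = 0.11 with the block). Hk1, the constitutive hexokinase, had 847 and 639 against 660 and 761. Its difference was 0.34 within replicate 1 and -0.24 within replicate 2, and the populations overlapped.

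The PFKFB enzymes set the level of fructose 2,6-bisphosphate, the main activator of phosphofructokinase. Pfkfb3 had 436 and 320 on the Atoh1-GFP arrays against 532 and 367 on the dNeurog1-GFP arrays, Pfkfb2 270 and 309 against 272 and 354, and Pfkfb4 534 and 613 against 461 and 455. Pfkfb4 was the one of the 3 whose populations did not overlap, with a log2 difference of 0.30. None of the 3 passed (adjusted p with the block from 0.34 to 0.82).

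**Figure D2:**
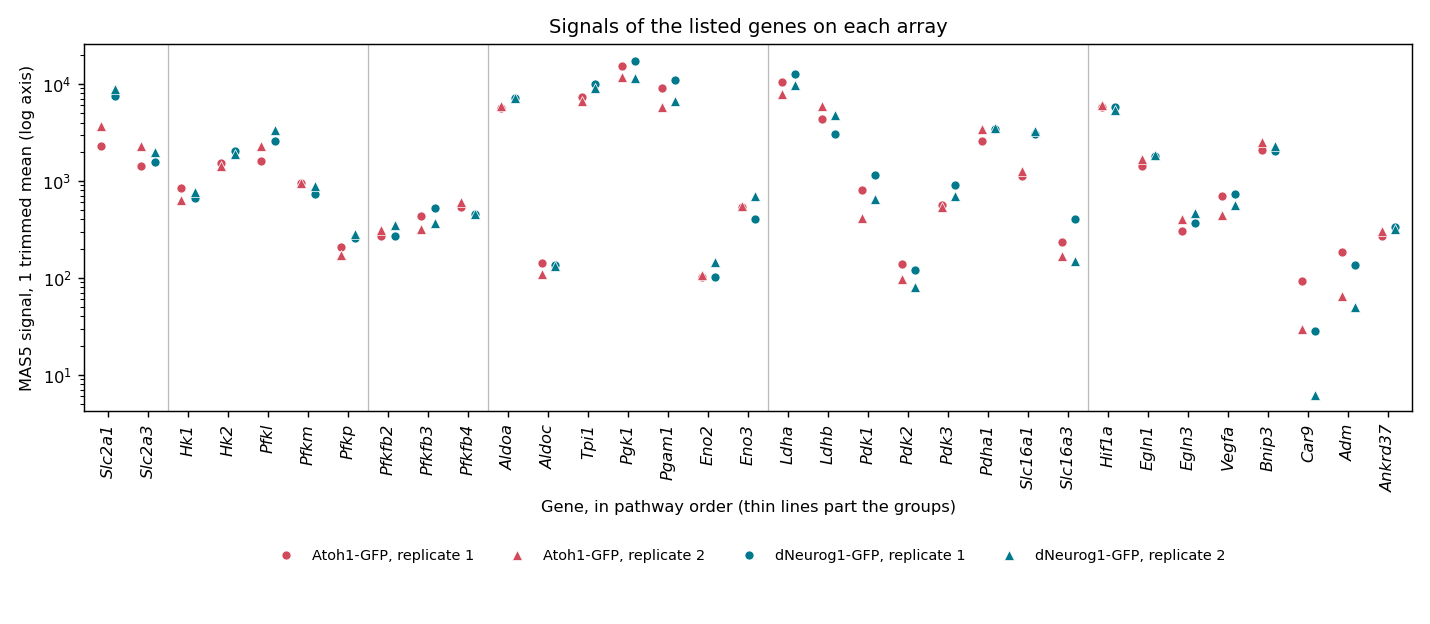
MAS5 signals, brought to 1 trimmed mean and drawn on a log axis, are plotted for the 33 genes with a probe set, in pathway order, with Atoh1-GFP in red, dNeurog1-GFP in teal, circles for replicate 1 and triangles for replicate 2. Among the 32 tested genes, the populations separate most for Slc2a1 and Slc16a1. For Pgk1, Pgam1 and Ldha the replicate 1 arrays (circles) lie above the replicate 2 arrays (triangles) in both populations. Levels of different genes come from different probes and are not compared.

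The later enzymes of glycolysis had fitted differences of less than 1.5-fold. Tpi1, triosephosphate isomerase, had 7264 and 6633 on the Atoh1-GFP arrays against 9918 and 9165 on the dNeurog1-GFP arrays. Its arrays did not overlap and its differences were nearly equal within the replicates, -0.45 and -0.46, but it missed the threshold (adjusted p = 0.080 with the block and 0.51 without it). Aldoa, the main aldolase, had 5707 and 5883 against 7158 and 7217, also without overlap, with a log2 difference of -0.31 (with the block, adjusted p = 0.18). Aldoc, the brain aldolase, was dim, with 143 and 108 against 136 and 132, and its sign differed between the replicates.

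Further down the pathway the populations overlapped in the brightest probe set of each gene. Pgk1, phosphoglycerate kinase, had 15370 and 11837 on the Atoh1-GFP arrays against 17358 and 11608 on the dNeurog1-GFP arrays, and Pgam1, phosphoglycerate mutase, had 9056 and 5790 against 10850 and 6700. In both genes the replicate 2 arrays lay below the replicate 1 arrays of their own population, and this step was larger than the step between populations. Eno2, the neuronal enolase, had 101 and 108 against 101 and 147. Eno3, the muscle enolase, had 535 and 551 against 400 and 698, with log2 differences of 0.39 and -0.32 within the replicates. None of these 4 passed, with adjusted p of 0.30 or more with the block.

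At the fate of pyruvate, the lactate dehydrogenase genes pointed in opposite directions. Ldha, whose subunit makes up the muscle-type enzyme, had 10455 and 7888 on the Atoh1-GFP arrays against 12803 and 9766 on the dNeurog1-GFP arrays, 1.22-fold and 1.24-fold higher in dNeurog1-GFP cells within the replicates. Ldhb, whose subunit makes up the heart-type enzyme, had 4300 and 5887 against 3039 and 4792, 1.42-fold and 1.23-fold higher in Atoh1-GFP cells. The log2 differences were -0.30 for Ldha and 0.40 for Ldhb, and neither passed (adjusted p = 0.21 and 0.12 with the block, 0.92 and 0.90 without it). For both genes the populations overlapped across replicates. Each replicate number holds 1 array per population, so a difference within it has no measure of spread. The direction was repeated between the numbers, with log2 differences of -0.29 and -0.31 for Ldha and 0.50 and 0.30 for Ldhb. Of all genes tested, 33.6% repeated a lower value and 33.3% a higher one. After quantile normalization with the block, Ldha and Ldhb passed (limma adjusted p = 0.017 and 0.012), as did Tpi1 (0.0017) and Aldoa (0.046). That combination was chosen after seeing the data, and more of all genes passed under it than with the block alone. Each of these genes passed in 1 of the 9 fits with the block.

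The pyruvate dehydrogenase kinases hold back the entry of pyruvate into mitochondria. Pdk1, a HIF1A target, had 813 and 418 on the Atoh1-GFP arrays against 1147 and 644 on the dNeurog1-GFP arrays, a difference of -0.48 within replicate 1 and -0.59 within replicate 2. Pdk3 had 562 and 540 against 904 and 703, without overlap, and a difference of -0.51. Pdk2 had 138 and 96.8 against 120 and 80.2, a difference of 0.18. None of the 3 passed (adjusted p = 0.095, 0.13 and 0.71 with the block). Pdha1, the catalytic subunit that these kinases phosphorylate, had 2606 and 3398 against 3403 and 3494, a log2 difference of -0.21.

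The oxygen-sensing genes showed smaller differences. Hif1a had 5788 and 6120 on the Atoh1-GFP arrays against 5749 and 5389 on the dNeurog1-GFP arrays, a log2 difference of 0.10 with a 95% interval of -0.19 to 0.38 with the block. An array reads the transcript, whereas HIF1A is regulated mainly at the protein. The prolyl hydroxylase genes Egln1 (1426 and 1685 against 1799 and 1850) and Egln3 (308 and 401 against 365 and 461) had differences of -0.23 and -0.21. Both are known HIF targets as well as regulators of HIF1A.

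The other HIF target genes went both ways. Vegfa, the endothelial growth factor, had 694 and 442 on the Atoh1-GFP arrays against 734 and 570 on the dNeurog1-GFP arrays. Bnip3, a mitophagy receptor, had 2064 and 2527 against 2051 and 2293, and Ankrd37 had 268 and 305 against 335 and 320. Adm, adrenomedullin, was dim and varied mainly between replicates, with 187 and 65.0 against 134 and 50.2. None of the 7 tested hypoxia genes passed in either model (adjusted p with the block from 0.33 to 0.75, and 0 at an unadjusted p under 0.05), and their log2 differences ran from -0.23 to 0.32. Car9, the carbonic anhydrase often used as a hypoxia marker, had 92.3 and 29.4 on the Atoh1-GFP arrays against 28.4 and 6.26 on the dNeurog1-GFP arrays. Its mean lay below the filter value of 63.5, so the higher Atoh1-GFP values are given without a test.

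Read as a whole list, 18 of the 32 genes were lower within both replicate numbers in Atoh1-GFP cells, 7 were higher within both and 7 went opposite ways. Over all genes these shares were 33.6%, 33.3% and 33.0%. Without overlap of the populations, 11 genes were lower and 3 higher, where 18.8% and 16.0% of all genes were. The median log2 difference of the 32 genes was -0.21 (-0.24 within replicate 1 and -0.20 within replicate 2), and that of all genes tested was 0.01. The list was chosen with results in view, so these counts are a description. By step, 6 of 12 tested glycolytic enzymes were lower within both replicates and 1 was higher, and of the 8 genes of pyruvate and lactate 5 were lower and 2 higher. Of the 32 genes, 29 differed by less than 1.5-fold on the log2(signal + 32) scale, and 86.1% of all genes did.

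**Figure D3:**
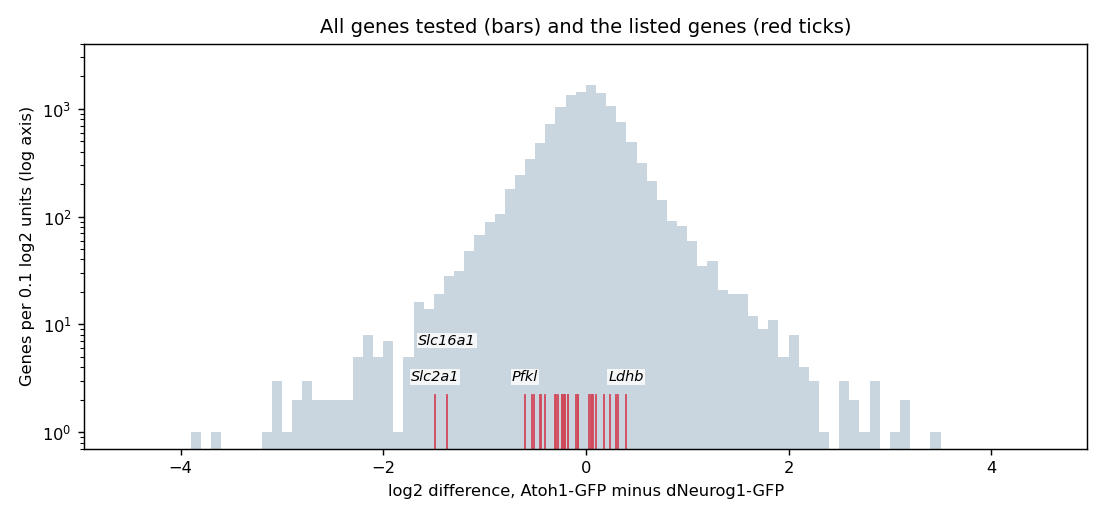
The grey bars count all 12740 genes tested by their log2 difference, Atoh1-GFP minus dNeurog1-GFP, in bins of 0.1 on a log count axis, and red ticks mark the 32 listed genes. Slc2a1 (-1.49) and Slc16a1 (-1.37) lie apart from the other 30 genes, which run from -0.60 (Pfkl) to 0.40 (Ldhb).

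Other probe sets of the same genes gave a second reading of the same RNA, though not a further replicate. All 3 probe sets of Slc2a1 were lower in Atoh1-GFP cells within both replicates, with mean log2 differences of -1.49, -1.70 and -1.63. The 3 probe sets of Pfkl (-0.60, -0.52 and -0.42) and of Tpi1 (-0.46, -0.57 and -0.46) were likewise lower within both, and the 4 of Ldhb (0.40, 0.47, 0.30 and 0.40) were higher within both. Of the 5 Aldoa probe sets 4 were lower within both (-0.30 to -0.33), and the fifth had -0.0036. The 3 of Pdk1 above the filter were lower within both. Slc16a1 had 1 probe set above the filter, so its difference rests on that one. The second probe sets of Vegfa, Egln3, Pfkp, Pdha1 and Hif1a changed sign between the replicates, whereas those of Slc2a3 and Hk1 gave opposite signs in the same way as the brightest ones. For Pfkfb2 the second was higher within both where the brightest was lower. For Pgk1, whose brightest probe set changed sign, the second was lower within both replicates (-0.25 and -0.20) without overlap, and the third changed sign.

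**Figure D4:**
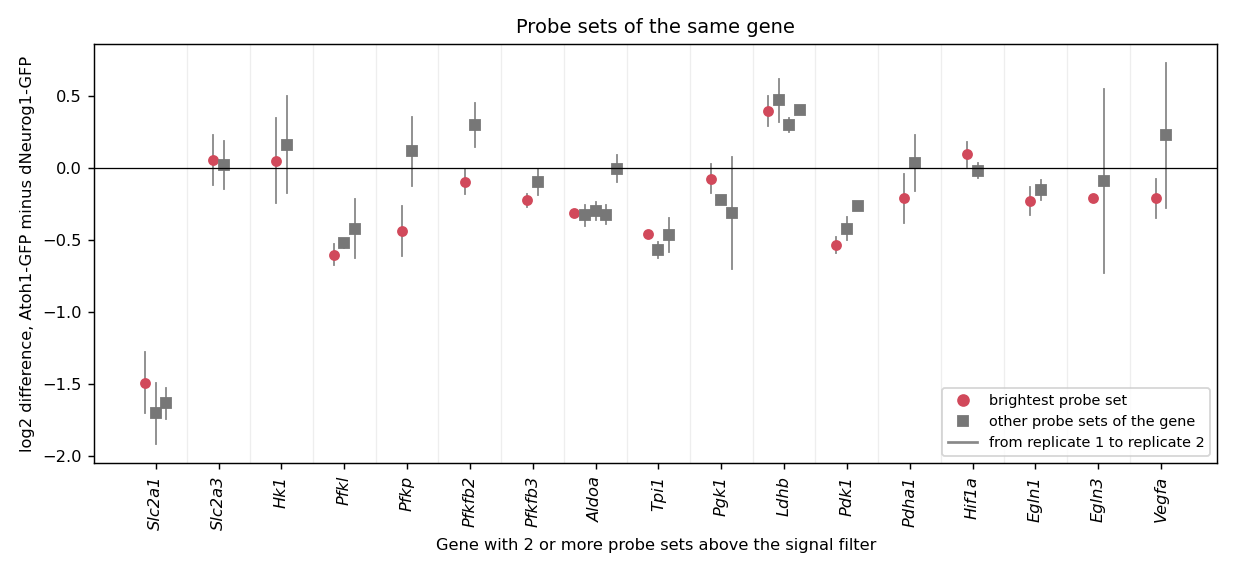
Each marker is the mean log2 difference, Atoh1-GFP minus dNeurog1-GFP, of 1 probe set above the signal filter, for the genes with 2 or more such probe sets; red circles are the brightest probe set, grey squares the others, and grey lines join the values of replicates 1 and 2. The probe sets of Slc2a1 lie between -1.49 and -1.70 and those of Ldhb between 0.30 and 0.47, while the probe sets of Vegfa and Pfkfb2 fall on both sides of 0.

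The step between replicate numbers was larger than the step between populations for 18 of the 32 genes, on 1 trimmed mean, as it was for 59.5% of all genes tested. It was largest for Adm, whose replicate 2 arrays were lower by a log2 difference of -1.09, and it was -0.86 for both Pdk1 and Slc16a3. The median signal of the scaled arrays was also lower in replicate 2, and its part in these steps was not tested. Pdk1 kept its direction within both replicates and Slc16a3 did not. For Slc2a1 the replicate step was 0.46 and for Slc16a1 0.14, both smaller than the difference between populations.

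Markers of other cells moved between the sorts as well. The list of neural progenitor markers also held cell cycle genes (Cdc6, Cdt1, Gins2, Ccne2, Mcm3, Mki67, Top2a and Birc5). Of its 22 tested markers, 14 passed with the block as lower in Atoh1-GFP cells and 0 as higher, with a median of -1.08. Cdc6, Cdt1, Gins2, Ccne2, Mcm3 and Birc5 were among those 14, so the counts mix progenitor identity with cell division. Summed over the markers, signals came to 70239 and 66757 on the Atoh1-GFP arrays against 112130 and 93410 on the dNeurog1-GFP arrays. Of 20 pan-neuronal markers, 6 were higher and 1 lower with the block, with a median of 0.55 and summed signals of 97771 and 96750 against 63737 and 82772. Within both replicate numbers 20 of the 22 progenitor markers were lower in Atoh1-GFP cells, as Slc2a1 and Slc16a1 were, and 1 was higher. The sizes differed, with log2 differences of -0.11 for Sox2, -0.05 for Vim and 0.40 for Nes, and 8 of the 22 did not pass. Most pan-neuronal markers that passed were higher. Within both replicate numbers 15 of the 20 pan-neuronal markers were higher in Atoh1-GFP cells and 3 were lower. The lower ones were Nefl (-0.71), Nefm (-0.78, the one that passed as lower) and Rbfox3 (-0.59). The part of either set of markers in the differences of Slc2a1 and Slc16a1 was not tested. Markers of blood and of endothelium had higher summed signals on the Atoh1-GFP array within each replicate number. Red blood cells and endothelium also carry GLUT1, and the part of these cells in the Slc2a1 signals was not tested. Most of the blood sum came from the globin genes Hbb-y, Hbb-bh1 and Hba-x, and Tal1 (-0.79) and Epor (-0.28) had fitted differences the other way. Within both replicate numbers 5 of the 9 tested blood markers and 10 of the 13 tested endothelial markers were higher, and 0 of either were lower. The 13 measured blood markers summed to 31654 and 32606 on the Atoh1-GFP arrays against 8617 and 23957 on the dNeurog1-GFP arrays, and the 16 endothelial markers to 3552 and 2166 against 1574 and 1886. With the block, 0 of 9 tested blood markers and 0 of 13 tested endothelial markers passed (4 and 6 at an unadjusted p under 0.05). Of 18 tested mesenchyme markers 0 passed with the block (1 at an unadjusted p under 0.05), and of 8 neural crest and sensory markers 2 were lower in Atoh1-GFP cells. No measured marker was listed at 0.

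Further genes of the pathway, from wider lists, mostly missed the threshold. Of 24 tested genes of glycolysis and pyruvate metabolism, 1 was lower with the block and 0 higher, and the median was -0.04. The one was Hk3, a hexokinase of myeloid cells, with 83.2 and 87.1 on the Atoh1-GFP arrays against 330 and 286 on the dNeurog1-GFP arrays, a log2 difference of -1.53 (limma adjusted p = 0.021 with the block, 0.17 without it). Pkm, pyruvate kinase, had 9484 and 9812 against 12243 and 9086 and a difference of -0.13. Of 48 tested hypoxia response genes, 3 were lower with the block and 0 higher, and the median was 0.05. They were Ak4, a mitochondrial adenylate kinase, at -1.33, Errfi1, an inhibitor of the EGF receptor, at -1.12, and Tfrc, the transferrin receptor, at -0.75. Their adjusted p with the block were 0.0063, 0.0096 and 0.021, and none passed without it (0.094, 0.37 and 0.28). Over all genes, 3.63% passed as lower with the block and 6.32% in either direction. The calls of both lists, all of them lower, were too few to show anything particular to either list.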

How the data were processed

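The authors deposited linear intensities made with MAS5, the one tool that the submitters' processing notes name, without a version or scaling target. Each array was multiplied to a trimmed mean of 500 (2% left out at each end). The 64 control probe sets were left out, and of the other 45037, those with a mean of at least 63.5, the 40th percentile, were kept (27022). Symbols came from the platform annotation, where 34945 probe sets had 1 symbol, 932 several and 9160 none; RefSeq matched 34741 by gene identifier and changed 0. For each gene the probe set with the highest mean was used. Of the 33 genes, 5 were read by probe sets of the _x_at type and 1 of the _s_at type, whose probes can match other transcripts, such as processed pseudogenes.

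log2(signal + 32) was tested with limma 3.58.1 (lmFit, and eBayes with trend) in R 4.3.3. The fit without the block was set as the main one, and the block was an alternative. The replicate number is treated as a processing batch because the scaling targets followed it. Code was tested on simulated data. With 2 arrays per population, p-values rest largely on a spread shared across genes, and the number of arrays limits the precision. Genes, lists and tests were chosen with earlier results of these data known; named genes are all listed genes and, of other pathway lists, those that passed in either fit. Bsg and Pkm were added after their values were seen. The cell type markers named singly, other than Atoh1 and Neurog1, were also chosen after their values were seen.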

Additional observations from a re-analysis of the deposited data

How the results depend on the processing

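Of the 32 genes, 14 were lower and 4 higher in Atoh1-GFP cells under all 21 alternatives run, Slc2a1 and Slc16a1 among the lower ones. Leaving out 1 array changed the sign of 14 genes, with log2 differences of Adm -0.27 to 0.90, Aldoc -0.24 to 0.077, Bnip3 -0.070 to 0.22, Eno2 -0.39 to 0.040, Eno3 -0.34 to 0.41, Hk1 -0.14 to 0.25, Pdk2 -0.035 to 0.40, Pfkfb2 -0.27 to 0.079, Pfkfb3 -0.47 to 0.026, Pgam1 -0.58 to 0.11, Pgk1 -0.36 to 0.22, Slc16a3 -0.92 to 0.37, Slc2a3 -0.28 to 0.40 and Vegfa -0.52 to 0.10. Averaging all probe sets also turned Pfkfb2 to 0.10 and Vegfa to 0.0077, without and with the block. The same-numbered arrays deviated together (Pearson's r = 0.66 across 12740 genes, which are not replicates), and the labels do not say what the number stands for. With the replicate block 805 genes passed in place of 28, and 3 of the listed genes in place of 0. Without the block, 13 genes passed on the values as deposited (1 higher and 12 lower in Atoh1-GFP cells), 18 at 1 common 75th percentile (7 and 11), 14 with no filter, 18 with a filter at the 60th percentile and 14 with the mean of all probe sets, and 0 listed genes passed under each of these. Leaving out 1 array gave 156 to 382 genes and 1 to 2 listed genes, from fits with fewer residual degrees of freedom in which 1 population has a single array, assumed to vary like the other; the cause was not tested. Their list median ran from -0.25 to -0.088, was -0.17 with a larger pseudocount and -0.16 with the mean of all probe sets, against -0.21. Combinations of the block with another setting were chosen after seeing the data. They gave 1169 genes and 3 listed ones on the values as deposited, 1874 and 7 after quantile normalization, 1203 and 3 at 1 common 75th percentile, 893 and 3 with a pseudocount of 8, 873 and 3 with a larger one, 353 and 2 with no filter, 958 and 3 with a filter at the 60th percentile and 700 and 2 with the mean of all probe sets. Slc2a1 and Slc16a1 passed in all 9 fits with the block and Pfkl in 7. Dim genes such as Adm, Aldoc and Car9 lie near the filter, where the signal limits what can be seen.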

Other observations

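Branches that leave or follow glycolysis were also read. Of 16 tested genes of the pentose phosphate and serine branches, 3 passed with the block as lower in Atoh1-GFP cells and 0 as higher, with a median log2 difference of -0.13, where 3.63% of all genes were lower. Phgdh, the first enzyme of serine synthesis, which draws on a glycolytic intermediate, had 2743 and 4479 on the Atoh1-GFP arrays against 5461 and 7763 on the dNeurog1-GFP arrays, a log2 difference of -0.89 (limma adjusted p = 0.015 with the block, 0.41 without it). Shmt1, which passes one-carbon units from serine to folate, had 373 and 456 against 836 and 901, a difference of -1.02 (0.023 with the block, 0.21 without it). Gpd2, the mitochondrial glycerol phosphate dehydrogenase, had 490 and 612 against 1256 and 1002, a difference of -0.99 (0.039 with the block, 0.25 without it).

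Of the 19 tested genes of the citric acid cycle, 0 passed in either limma model (2 at an unadjusted p under 0.05 with the block). Over all genes 6.32% passed with the block and 0.22% without it, so a count of 0 among 19 is near that background. Within both replicate numbers 6 were lower in Atoh1-GFP cells and 0 were higher, where 33.6% and 33.3% of all genes were. The median difference was -0.08, from -0.17 in replicate 1 and 0.02 in replicate 2.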
